A study of Mus musculus with 9 samples.

Results

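The proteasome genes were taken from a deposited expression table of ear skin as the entries whose symbol starts with Psm, a letter from a to g and a digit, which gave 50 of the 25124 genes listed. Whole ear skin of C57BL/6 mice was sequenced 8 days after Staphylococcus epidermidis, a bacterium of normal skin, was first swabbed onto it. All 9 libraries came from mice that carried strain LM087 of this bacterium, reapplied every other day. In 5 libraries the bacterium was the only treatment named. In 4 the mice also received an antibody against CTLA-4, a receptor that restrains T cell activation and is blocked in cancer therapy. The labels used here give no antibody dose or schedule, no control antibody and no age or sex of the mice. The labels do not say that each library is a separate mouse, so p-values measure the spread between these libraries, which may be partly technical. The comparison asks what the antibody added in skin that already carried the bacterium.

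The proteasome is the protease complex that degrades proteins marked with ubiquitin. Its barrel-shaped core holds alpha rings, which gate the entrance, and beta rings, in which Psmb5, Psmb6 and Psmb7 carry the constitutive cutting sites. Interferon-gamma induces alternative cutting subunits, Psmb8, Psmb9 and Psmb10, which are built into new particles in place of Psmb5, Psmb6 and Psmb7 respectively and make the immunoproteasome, a form that immune cells also carry without such a stimulus. The peptides it releases are among those loaded on MHC class I molecules for display to CD8 T cells, and the PA28 activator, made of the Psme1 and Psme2 proteins, caps the same cores.

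Of the 50 genes, 14 code for constitutive core subunits and 17 for the 19S regulatory particle, which recognises, unfolds and feeds ubiquitinated proteins into the core. The other entries are the 5 immunoproteasome genes (Psmb8, Psmb9, Psmb10, Psme1 and Psme2), 7 assembly chaperones, 3 other activators or regulators, 2 tissue-restricted core subunits, the Psme2 copy Psme2b and Psmc3ip, a recombination factor that shares only the name. A level of at least 1 TPM in at least 4 libraries was needed for the test, and 48 of the 50 met it. TPM is a level scaled to the library's total, and here it divides a gene's reads by its whole span on the genome, introns included. The values were whole multiples of 1 read in each library, which returned 10213773 to 13868671 reads per library in all and 26606 to 41264 for the 50 genes together.

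Psmb8 and Psmb9 lie within the MHC class II region of chromosome 17, at 34198195 to 34201454 on the plus strand and at 34182099 to 34187330 on the minus strand of the mm10 genome. Psmb10 lies at 105935728 to 105938392 on chromosome 8, minus strand. Psme1 (55578494 to 55581527, plus strand) and Psme2 (55587440 to 55591021, minus strand) are neighbours on chromosome 14. Promoters are shown for 2 of these 5 genes, Psme1 for 1 motif match and Psmb9 for the start it shares with another gene that was higher with the antibody. Not every motif examined is given here, so no order of the 5 promoters can be read from these matches. They run from 250 bases before to 50 bases after the transcription start, from RefSeq on GRCm38.p6, the assembly called mm10. Capitals mark a match to the core of the site bound by interferon regulatory factors (GAAA, any 2 bases, GAAA) on the opposite strand in Psme1 (chr14:55578244-55578543, plus strand). In Psmb9 (chr17:34187281-34187580, minus strand) they mark the 225 bases between its start and that of Tap1, a subunit of the peptide transporter that supplies MHC class I, which is read in the other direction.
Psmb9: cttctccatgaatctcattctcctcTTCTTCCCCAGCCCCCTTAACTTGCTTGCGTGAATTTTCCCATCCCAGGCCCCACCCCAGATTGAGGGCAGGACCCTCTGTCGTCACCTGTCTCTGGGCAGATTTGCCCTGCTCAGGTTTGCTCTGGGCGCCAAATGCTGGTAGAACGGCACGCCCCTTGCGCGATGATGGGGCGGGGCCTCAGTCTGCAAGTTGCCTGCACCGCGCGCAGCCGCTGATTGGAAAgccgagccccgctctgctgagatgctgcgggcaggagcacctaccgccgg
Psme1: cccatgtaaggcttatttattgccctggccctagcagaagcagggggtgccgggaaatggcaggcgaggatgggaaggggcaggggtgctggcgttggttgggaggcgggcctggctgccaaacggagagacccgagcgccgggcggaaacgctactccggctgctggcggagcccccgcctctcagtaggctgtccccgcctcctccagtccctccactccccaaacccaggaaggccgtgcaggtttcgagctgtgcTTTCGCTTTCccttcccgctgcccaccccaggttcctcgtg

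The Psme1 match lay 9 to 18 bases after the start. Among all 32851 RefSeq promoter windows of this length, 3.44% held this core on either strand. It was in 1 of the 5 immunoproteasome promoters. Of the 25 constitutive subunits with a window, Psmb3 and Psmd4 held it. The antioxidant response core bound by Nfe2l1 and Nfe2l2 (TGAC, any 3 bases, GCA) was in Psmd12 alone of these 30 windows and in 3.04% of all. A loose form of the NF-kappaB site (GGG, any 5 bases, CC) was in 3 of 5 (Psmb9, Psme1 and Psme2), 16 of 25 and 50.8%. These are letter matches and no measurement of binding.

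With the antibody, the immunoproteasome's cutting subunits rose, while no constitutive subunit passed the test. By limma, 4 of the 5 immunoproteasome genes were higher at an adjusted p under 0.05, against 7.16% of all 15704 genes tested. Their median log2 fold change was 0.90, where the log2 fold change is that of TPM + 1, anti-CTLA-4 minus bacterium alone. The median over all tested genes was -0.014. Over all 48 tested members, 5 were higher (10.4%) and 0 lower, against 4.48% of all genes lower. Groups did not overlap for 4 members on the higher side (8.33%, against 8.02% of all genes) and for 0 on the lower side (against 6.39%), so by these counts the name family as a whole stood near the background. At an unadjusted p under 0.05, 12 members were higher (25.0%, against 13.6% of all genes) and 0 lower (against 12.8%), and these 12 include the 5 immunoproteasome genes and Psme2b. The share of RNA from each cell type was not measured in these bulk libraries, so more cells of a type and more RNA per cell cannot be told apart.

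**Figure D1:**
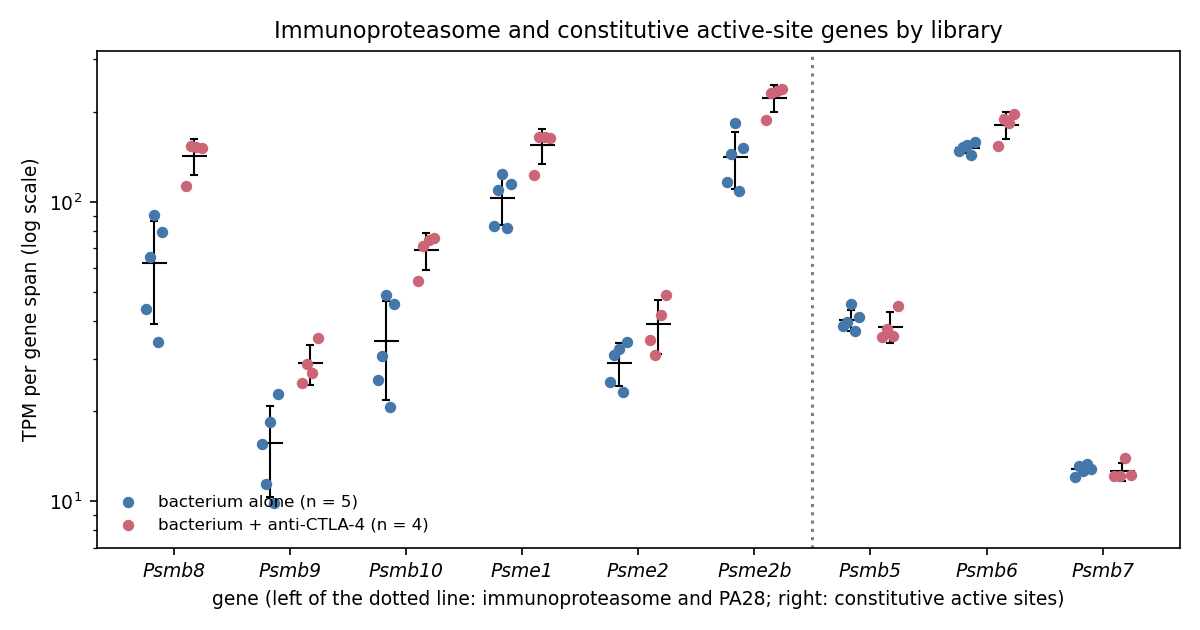
TPM per library on a log axis for the immunoproteasome genes, the Psme2 copy and the constitutive cutting subunits, with points as libraries, lines as means and bars as SD (bacterium alone, n = 5; with anti-CTLA-4, n = 4). Psmb8 ran from 34.2 to 90.3 TPM with the bacterium alone and from 113 to 154 with the antibody. Psmb5, Psmb6 and Psmb7 overlapped between groups.

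Psmb8, the alternative chymotrypsin-like subunit, measured 43.8, 65.4, 90.3, 34.2 and 79.5 TPM in bacterium-alone libraries 1 to 5. With anti-CTLA-4, libraries 1 to 4 measured 113, 154, 153 and 151 TPM. All antibody libraries lay above all others, with the first the lowest of its group. The means were 62.6 ± 23.6 TPM (SD, n = 5) and 143 ± 20.0 (SD, n = 4), a log2 fold change of 1.25 ± 0.27 (SE; limma adjusted p = 0.0181). This was the largest change of any member tested.

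Psmb10, the alternative trypsin-like subunit, measured 25.4, 30.5, 48.9, 20.6 and 45.6 TPM with the bacterium alone and 54.6, 71.2, 74.6 and 76.1 TPM with the antibody. The groups did not overlap, and again bacterium-alone library 4 and antibody library 1 were the lowest of their groups. The means were 34.2 ± 12.4 TPM (SD, n = 5) and 69.1 ± 9.89 (SD, n = 4), and the log2 fold change was 1.06 ± 0.24 (SE; limma adjusted p = 0.0241).

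Psmb9, the alternative subunit at the caspase-like position, measured 15.6, 11.4, 18.4, 9.87 and 22.8 TPM with the bacterium alone and 24.9, 28.8, 26.9 and 35.1 TPM with the antibody. The groups were separate but close, since the fifth bacterium-alone library came near the first antibody library. The means were 15.6 ± 5.24 TPM (SD, n = 5) and 28.9 ± 4.41 (SD, n = 4), and the log2 fold change was 0.90 ± 0.22 (SE; limma adjusted p = 0.0303).

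The PA28 genes changed less. Psme1, the alpha subunit of PA28, measured 83.2, 109.9, 124, 81.9 and 115 TPM with the bacterium alone and 123, 165, 165 and 164 TPM with the antibody. The groups overlapped, because the third bacterium-alone library lay just above the first antibody library. The log2 fold change was 0.59 ± 0.15 (SE; means 103 ± 19.3 and 155 ± 20.8 TPM, SD, n = 5 and n = 4; limma adjusted p = 0.0340). Psme2, the beta subunit, measured 25.1, 30.8, 32.3, 23.1 and 34.1 TPM with the bacterium alone and 34.7, 30.8, 41.9 and 49.1 TPM with the antibody. Its groups overlapped through the second antibody library, and its log2 fold change of 0.41 ± 0.16 (SE) did not pass the test (limma adjusted p = 0.127).

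Psme2 has a near-identical copy without introns, Psme2b, at 48945352 to 48946410 on chromosome 11, so the split of reads between the copies is uncertain. Of the 75-base stretches of Psme2b, 60.2% occur in the Psme2 transcript, and 51.7% of those of Psme2 occur in Psme2b. Psme2b measured 116, 145, 184, 108 and 151 TPM with the bacterium alone and 188, 232, 234 and 239 TPM with the antibody. The groups did not overlap, with a log2 fold change of 0.68 ± 0.15 (SE; means 141 ± 30.05 and 223 ± 23.5 TPM, SD, n = 5 and n = 4; limma adjusted p = 0.0211). Summed over both entries, which makes the split irrelevant, the reads scaled to the library's total (RPM) were 27.2, 33.0, 39.8, 23.5 and 36.6 with the bacterium alone and 43.1, 46.2, 48.9 and 56.0 with the antibody. The sums of the groups did not overlap, and their means of 32.0 ± 6.69 and 48.5 ± 5.52 (SD, n = 5 and n = 4) differed by 0.60 on the log2 scale, with no test run on the sum. Psme2b overlaps 9930111J21Rik1 on the same strand by 261 bases. That gene was also higher with the antibody, at 1.08 and 2.13 TPM (log2 fold change 0.60, limma adjusted p = 0.00665). How reads in the shared bases were assigned was not tested.

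Several of these calls ended when 1 library was left out, though none of the genes changed direction. The log2 fold change of Psmb10, for instance, ran from 0.90 to 1.20 over these fits. Calls over all genes ran from 1190 to 1763, against 1828 with all 9 libraries. Psmb8 stayed called whichever of the 9 libraries was left out (limma adjusted p from 0.0111 to 0.0481), while Psmb10 was lost without bacterium-alone library 1 or 2 or antibody library 2, 3 or 4 (up to 0.0625), Psmb9 and Psme1 without any of these or bacterium-alone library 4 (up to 0.0810 and 0.0845), and Psme2b without antibody library 2, 3 or 4 (up to 0.0562). With the skeletal muscle content of each library as a covariate, none of the 5 immunoproteasome genes was called (Psmb8, log2 fold change 0.78, limma adjusted p = 0.291), as the calls over all genes fell from 1828 to 11. With array weights, which count discordant libraries less, Psme1 was not called (limma adjusted p = 0.0570).

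**Figure D2:**
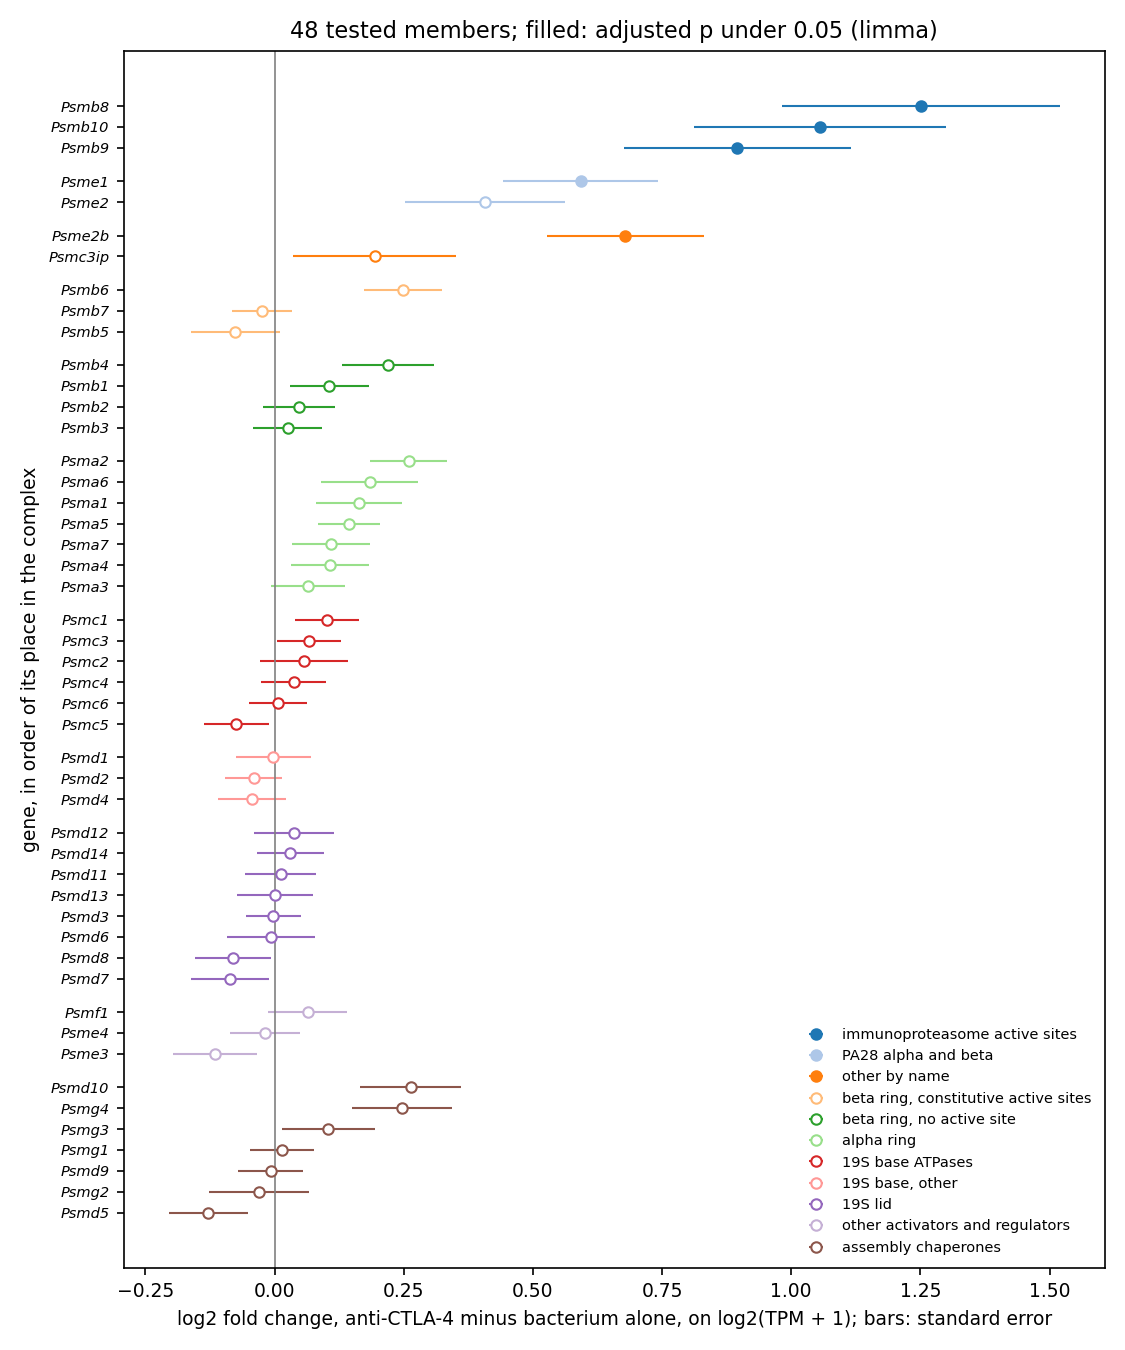
Log2 fold change of TPM + 1 (anti-CTLA-4 minus bacterium alone, n = 4 and n = 5) with its SE for the 48 tested members, grouped by role. The points of Psmb8, Psmb10, Psmb9, Psme2b and Psme1 lie at 1.25, 1.06, 0.90, 0.68 and 0.59, and the 31 constitutive subunits lie between -0.09 and 0.26.

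Of the 31 constitutive core and 19S subunits, 0 were called higher by limma (against 7.16% of all genes) and 0 lower (against 4.48%). Their median log2 fold change was 0.04. At an unadjusted p under 0.05, 4 were higher (Psma2, Psma5, Psmb4 and Psmb6), or 12.9%, near the 13.6% of all genes. With limma-voom on the recovered reads, which called 11.7% of all genes higher, 3 of these were called (Psma2, Psmb4 and Psmb6), and none of the 31 was lower. Psmb7, the constitutive trypsin-like subunit, measured 12.1, 13.2, 12.7, 13.3 and 12.9 TPM with the bacterium alone and 12.1, 12.1, 13.9 and 12.2 TPM with the antibody, a log2 fold change of -0.02 ± 0.06 (SE; limma adjusted p = 0.833). Psmb5, the constitutive chymotrypsin-like subunit, measured 38.5, 39.7, 45.6, 37.0 and 41.2 TPM with the bacterium alone and 35.3, 37.6, 35.7 and 44.8 TPM with the antibody, and its log2 fold change was -0.08 ± 0.09 (SE; limma adjusted p = 0.633). The groups overlapped for both genes. Psmb6, the constitutive caspase-like subunit, measured 149, 152, 154, 144 and 158 TPM with the bacterium alone and 154, 189, 184 and 197 TPM with the antibody. Here 3 antibody libraries lay above all bacterium-alone libraries and antibody library 1 among them, at a log2 fold change of 0.25 ± 0.08 (SE; limma adjusted p = 0.0648).

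Among the 7 alpha ring genes, whose products gate the core, all log2 fold changes were positive and none was called. They ran from 0.06 for Psma3 (15.3 ± 0.734 and 16.0 ± 1.66 TPM, SD, n = 5 and n = 4) to 0.26 for Psma2 (34.4 ± 0.999 and 41.6 ± 4.53 TPM; limma adjusted p = 0.0524). Without the first antibody library, Psma2 and Psmb6 were called (limma adjusted p = 0.0141 and 0.0157), as was Psma6. Under quantile normalization both were called as well (limma adjusted p = 0.0150 and 0.0331), as they were with totals that leave out the 50 most abundant genes (0.0224 and 0.0491), and Psma2 alone with a common median (0.0419). The beta subunits without a cutting site ran from 0.03 for Psmb3 to 0.22 for Psmb4 (136 ± 10.5 and 159 ± 18.6 TPM; limma adjusted p = 0.152). The 14 core subunits together had a median log2 fold change of 0.11, with 12 of 14 positive, and over 24 other settings that median lay between 0.05 and 0.16.

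The 17 subunits of the 19S particle centred on no change, with a median log2 fold change of 0.00055 and 9 of 17 positive. None was called, and 0 had an unadjusted p under 0.05 (against 13.6% of all genes higher and 12.8% lower). The 6 ATPases, which unfold the substrate, ran from -0.07 for Psmc5 to 0.10 for Psmc1. The other base subunits ran from -0.04 for the ubiquitin receptor Psmd4 to -0.002 for the scaffold Psmd1, and the lid, which removes ubiquitin, from -0.09 for Psmd7 to 0.04 for Psmd12. The median moved between -0.05 and 0.04 over the 24 settings, so its sign depended on the setting. No test compared the 19S particle with the core.

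The remaining regulators did not pass the test either. Psme3, the nuclear PA28 gamma activator, measured 55.2 ± 1.55 and 51.2 ± 6.54 TPM (SD, n = 5 and n = 4; log2 fold change -0.12, limma adjusted p = 0.411). Psme4, the PA200 activator, measured 21.5 ± 1.28 and 21.2 ± 1.68 TPM (-0.02; limma adjusted p = 0.895). Psmf1, an inhibitor of the core, measured 7.16 ± 0.740 and 7.51 ± 0.433 TPM (0.06; limma adjusted p = 0.656). The 7 assembly chaperones ran from -0.13 for Psmd5 to 0.26 for Psmd10 (limma adjusted p = 0.120), and Psmc3ip, which is no subunit, stood at 0.19 (limma adjusted p = 0.484). The 2 members below the filter are core subunits of other organs. Psma8, of the testis, had 4 to 14 reads per library (44 in all without the antibody and 43 with it), and Psmb11, of the thymus, had 4 and 2 reads in all and none in 4 libraries, where a count of 0 allows up to 3 reads or 0.389 to 0.519 TPM.

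For each cutting site, the alternative subunit was then set against the constitutive subunit it replaces within the same library, a ratio that no scaling of a library moves beyond the pseudocount of 1. The ratio of Psmb8 to Psmb5 rose by 1.33 on the log2 scale, from 0.54 ± 0.48 (SD, n = 5) to 1.86 ± 0.20 (SD, n = 4). That of Psmb10 to Psmb7 rose by 1.08, from 1.28 ± 0.53 to 2.36 ± 0.20 (SD, n = 5 and n = 4). That of Psmb9 to Psmb6 rose by 0.65, from -3.26 ± 0.42 to -2.61 ± 0.12 (SD, n = 5 and n = 4). These are 2.54-fold, 2.15-fold and 1.62-fold changes in the ratio, and the groups did not overlap for any of them. An exact permutation test, two-sided and over all 126 ways to split the libraries, gave p = 0.0159 for each, the smallest that 5 against 4 libraries allow, and 0.0159 after adjustment over the 3 ratios. Leaving out each library in turn kept the differences between 1.17 and 1.44, between 0.91 and 1.23, and between 0.53 and 0.77 in the same order. Because the full groups do not overlap, the permutation p without 1 library is fixed at its smallest value and is not given.

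**Figure D3:**
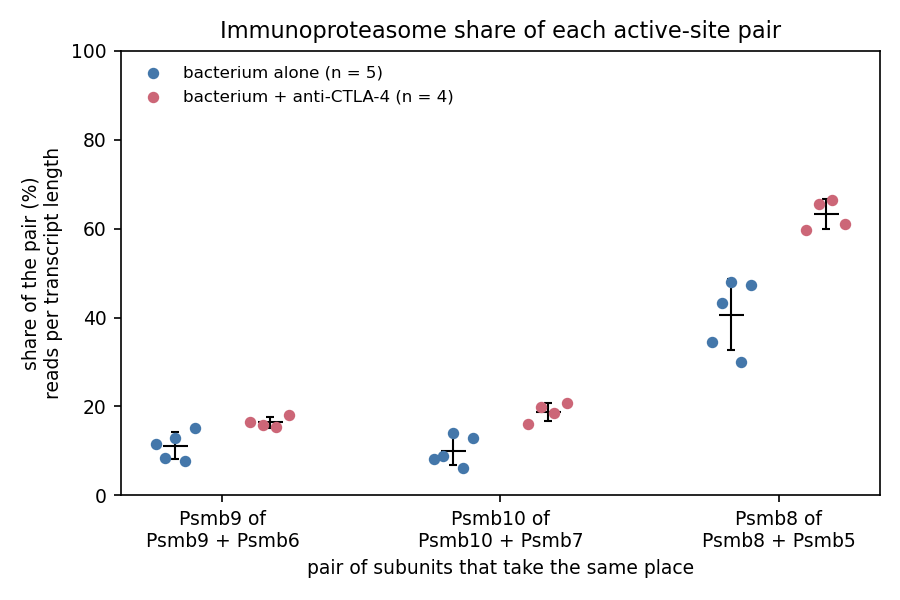
Share of the alternative subunit in the summed transcript level of each cutting-site pair, in percent, per library (points) with mean and SD (bacterium alone, n = 5; with anti-CTLA-4, n = 4). The Psmb8 share ran from 30.03% to 47.9% and from 59.7% to 66.5%, and the other shares stayed at or under 20.8%. Levels are reads per length of principal transcript, and reads in introns, if counted, would raise genes with long introns.

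Levels of different genes can be set against each other only per length of transcript, and the deposited scale, per genomic span, gives another picture. Recovered reads were therefore divided by the length of each gene's principal transcript. On that scale Psmb8 made up 40.6% ± 7.96 of Psmb8 plus Psmb5 in the bacterium-alone group and 63.2% ± 3.33 in the antibody group (SD, n = 5 and n = 4). The libraries ran from 30.03% to 47.9% and from 59.7% to 66.5%, so Psmb8 was the lesser of the pair in every bacterium-alone library and the greater in every antibody library. Psmb10 made up 10.04% ± 3.33 of its pair with Psmb7 and then 18.8% ± 2.11, and Psmb9 made up 11.1% ± 3.03 of its pair with Psmb6 and then 16.4% ± 1.19 (SD, n = 5 and n = 4). The Psmb5 level is uncertain here, since 40.0% of the 75-base stretches of its transcript also occur in other genes (Gm3375 or Mir686), against 3.22% for Psmb8, and reads lost or gained there would move this share in all libraries. For the other sites the constitutive subunit was the greater of the pair on this scale in all 9 libraries. Reads in introns would inflate Psmb7 here, since its span is 55860 bases, and whether such reads were counted is not known. Psmb7 shares 24.1% of its stretches with Nek6 and Psmb9 10.8% with Tap1, while Psmb6 and Psmb10 share 0. How such reads were assigned was not tested. The shares describe RNA and not assembled particles.

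By deposited TPM, Psmb10 made up 71.2% and 84.4% of its pair, and Psmb8 59.2% and 78.7%, so the order within both bacterium-alone pairs turns with the scale. The span of Psmb7 is 55860 bases against a transcript of 1160, whereas Psmb10 spans 2664 bases with a transcript of 1311. Among the 50 members, Psmb7 ranked 38 by TPM and 3 per transcript length, Psmb10 14 and 39, and Psmb8 5 and 31. Psme2b, which has no intron, ranked 1 by TPM and 27 per transcript length. The length of 1 gene is the same in every library, so it cancels from a difference between groups. The total to which each library is scaled differs between these scales, however, which can move a small difference. Psmb7 measured 12.8 TPM without and 12.6 with the antibody. As reads scaled to the library's total and per kilobase of transcript, it measured 77.7 and 78.3. Psmb8 was higher with the antibody on both scales (62.6 and 143 TPM, 15.9 and 36.8 per kilobase).

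**Figure D4:**
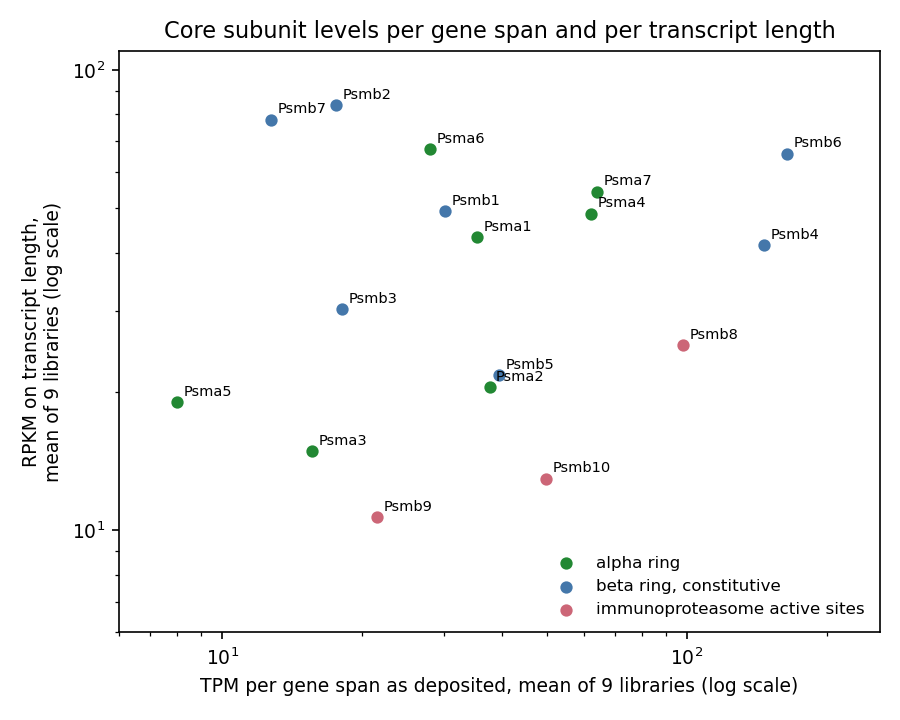
Mean level of each core subunit over the 9 libraries, as deposited TPM per gene span (x, log axis) against RPKM, reads scaled to the library's total and per kilobase of transcript (y, log axis). The 14 constitutive core subunits span 20.6-fold on the x axis and 5.64-fold on the y axis.

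The 14 constitutive core subunits, which are present in equal numbers in the particle, ran from 8.00 (Psma5) to 165 (Psmb6) TPM, a 20.6-fold range. As RPKM, the recovered reads scaled to the library's total and per kilobase of transcript, they ran from 14.8 for Psma3 to 83.7 for Psmb2, a 5.64-fold range. The highest level of the 31 constitutive subunits on that scale was 111 for Psmd14, the deubiquitinase of the lid. Psmb8 stood at 15.9 without and 36.8 with the antibody, Psmb10 at 8.83 and 18.1, and Psmb9 at 7.67 and 14.5. Reads that fall in introns would inflate this scale for genes with long introns, and the sources used here do not say whether they were counted.

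Members also differed in how much they varied among libraries of the same treatment. With the bacterium alone, the coefficient of variation of TPM was 37.6% for Psmb8, 36.4% for Psmb10, 33.6% for Psmb9, 18.7% for Psme1 and 16.3% for Psme2. All 5 lay above each of the 31 constitutive subunits, which ran from 1.66% for Psmd2 to 8.17% for Psmb5. With the antibody the ranges met, at 13.4% to 20.7% for the immunoproteasome genes and 5.53% to 14.7% for the constitutive subunits. For the immunoproteasome genes, counting error was smaller than this spread. Psmb8 had 164 to 894 reads per library. Psmb9, the least covered of the 5, had 76 to 333 reads, for a counting SD of 11.5% at the fewest. That does not hold for every constitutive subunit. The counting SD of Psmd2, 2.55% to 3.04% over all libraries, exceeded its spread of 1.66%, whereas that of Psmb5, 5.63% to 7.33%, lay below its 8.17%. This covers counting error only.

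The libraries kept a similar order from gene to gene. Among bacterium-alone libraries, library 4 was the lowest for all 5 immunoproteasome genes and library 3 or 5 the highest, and library 4 was also the lowest for Psmb5 and Psmb6 but the highest for Psmb7. The summed TPM of 12 leukocyte markers was likewise lowest in library 4, whereas that of the monocyte and macrophage markers was lowest in library 1 (280 TPM, against 332 in library 4). The leukocyte sum ran from 169 to 233 with the bacterium alone and from 415 to 532 with the antibody. By limma, 12 of 12 markers were called higher, and none was at 0 in any library. Over all genes, the basis for this and the next lists, 7.16% were called higher and 4.48% lower. T and NK cell markers summed to 37.0 to 56.7 and 116 to 154 TPM (11 of 13 tested, of 14 listed, higher; Gzma at 0 in a library). Monocyte and macrophage markers summed to 280 to 419.5 and 548 to 778 TPM (9 of 10 higher), and neutrophil markers to 106 to 1478 and 1508 to 4458 TPM (3 of 5 tested, of 8 listed, higher; Mpo, Elane, Ly6g and Retnlg at 0 in some libraries). Keratinocyte markers summed to 23440 to 29535 and 20568 to 24148 TPM (1 of 9 higher and 2 lower), and those of dendritic and Langerhans cells to 64.6 to 76.0 and 57.4 to 65.0 TPM, with 0 of 8 called. Hair follicle markers summed to 71.2 to 99.6 and 45.05 to 56.1 TPM (4 of 6 tested, of 9 listed, lower, and 0 of 6 positive). Skeletal muscle markers, the basis of the muscle covariate, summed to 1580 to 2462 and 1399 to 1946 TPM (1 of 12 lower, and 0 of 12 positive), with the highest bacterium-alone sum in library 4. Psmb8, Psmb9 and Psmb10 are expressed by leukocytes as well as by stimulated skin cells, and the part of cell content in their rise was not tested.

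**Figure D5:**
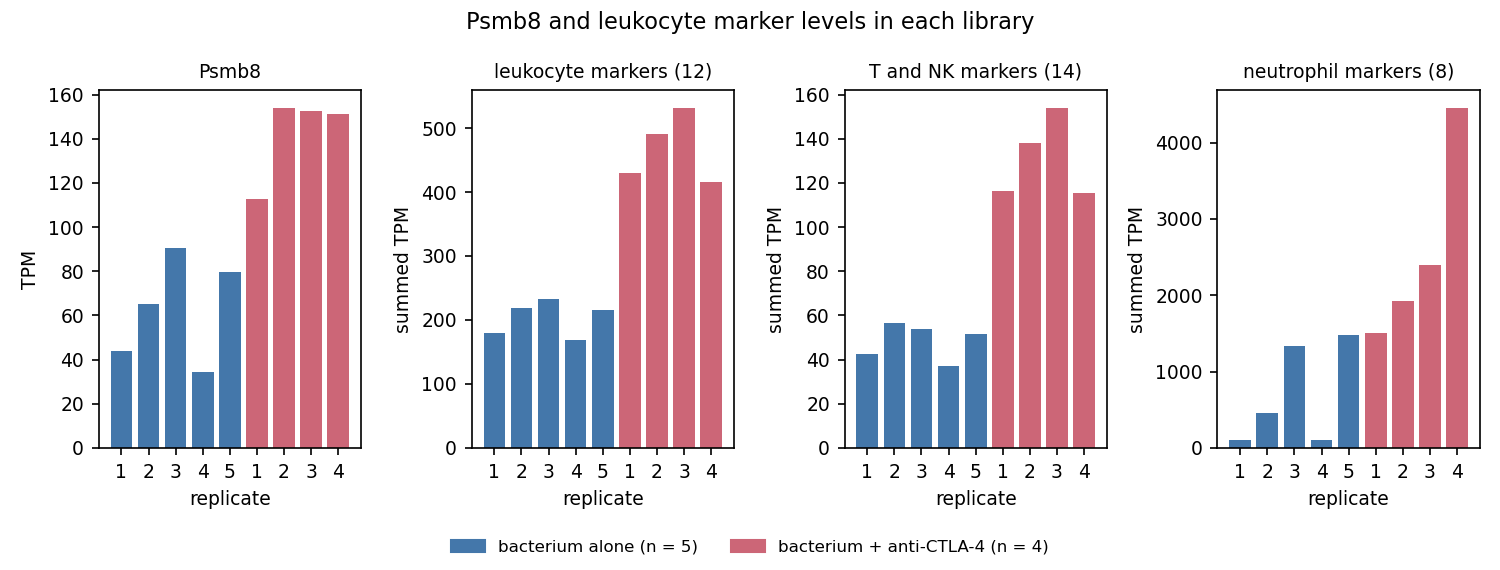
Psmb8 level in TPM and summed TPM of the leukocyte, T and NK cell and neutrophil marker lists, as 1 bar per library (bacterium alone, n = 5; with anti-CTLA-4, n = 4), each panel on its own linear axis from 0. Leukocyte sums run from 169 to 233 and from 415 to 532, Psmb8 from 34.2 to 90.3 and from 113 to 154, and neutrophil sums vary most within a group, from 106 to 1478 with the bacterium alone.

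Genes that work with the proteasome were taken from 5 lists, of which 74 genes were tested. By limma 11 were higher (14.9%, against 7.16% of all genes) and 1 lower (against 4.48% of all genes). Among 13 other subunits, maturation and associated factors, 1 was called higher (7.69%, near the share of all genes). It was Pomp, the maturation chaperone that assembles the core. Pomp measured 18.2, 19.6, 21.5, 20.0 and 20.2 TPM with the bacterium alone and 22.4, 24.7, 24.9 and 28.7 TPM with the antibody. The groups did not overlap, and the log2 fold change was 0.32 ± 0.08 (SE; limma adjusted p = 0.0275). Leaving out bacterium-alone library 1, 2 or 4 or antibody library 2, 3 or 4 ended the Pomp call (limma adjusted p up to 0.0642). Of 16 genes for ubiquitin and its delivery to the proteasome, 0 were called by limma. At an unadjusted p under 0.05, 1 was higher (6.25%, against 13.6% of all genes).

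Of 18 transcription factors that act on proteasome genes, 3 interferon regulatory factors rose (16.7%, against 7.16% of all genes). A further 1, a partner of Nfe2l1, fell (against 4.48% of all genes). Irf8, a factor of myeloid and B cells, measured 8.10 ± 1.17 and 13.3 ± 2.36 TPM (SD, n = 5 and n = 4; log2 fold change 0.65, limma adjusted p = 0.0148). Irf9, which carries the signal of type I interferon, measured 32.2 ± 5.47 and 46.7 ± 4.004 TPM (0.53; limma adjusted p = 0.0206). Irf2 measured 11.6 ± 0.482 and 14.6 ± 0.800 TPM (0.31; limma adjusted p = 0.00977), and Mafk, a small Maf protein that pairs with Nfe2l1, measured 20.1 ± 1.17 and 16.6 ± 1.17 TPM (-0.27; limma adjusted p = 0.0298). Irf1 and Nfe2l1 were chosen after their values were seen. Irf1, the factor best known for inducing Psmb9, measured 41.0 ± 18.2 and 62.8 ± 20.5 TPM (SD, n = 5 and n = 4) and was not called (limma adjusted p = 0.255). Nfe2l1, which drives the constitutive subunits when proteasomes are blocked, measured 210.4 ± 11.2 and 188 ± 15.4 TPM (limma adjusted p = 0.181).

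Among 11 interferon receptors and kinases, 4 were higher (36.4%, against 7.16% of all genes). They were Ifnar2 (7.35 and 11.8 TPM; log2 fold change 0.62, limma adjusted p = 0.00450), Ifngr1 (0.44, 0.0246), Jak2 (0.34, 0.0173) and Ifnar1 (0.33, 0.0411). Among 16 genes that supply and load MHC class I, 3 were higher (18.75%). B2m, the light chain of MHC class I, measured 422 and 822 TPM (log2 fold change 0.96, limma adjusted p = 0.00903), and both subunits of the peptide transporter rose, Tap1 by 0.74 (limma adjusted p = 0.0454) and Tap2 by 0.47 (limma adjusted p = 0.0292). B2m, Ifnar2, Irf2, Irf8 and Jak2 stayed called whichever library was left out, though Irf2 and Jak2 were not called with the replicate number as a block (limma adjusted p = 0.0635 and 0.0622). The other calls did not hold in every such fit, though each kept its direction. The Irf9 call ended without antibody library 3 or 4 (limma adjusted p up to 0.0559). That of Ifngr1 ended without antibody library 1, 3 or 4 (limma adjusted p up to 0.0623). For Tap2 it ended without bacterium-alone library 1 or 2 or antibody library 3 or 4 (limma adjusted p up to 0.0785). For Mafk it ended without bacterium-alone library 1 to 4 or antibody library 1 or 2 (limma adjusted p up to 0.0778). Tap1 kept its call only without bacterium-alone library 3 or 5 (otherwise limma adjusted p up to 0.112), with log2 fold changes from 0.59 to 0.85. Ifnar1 kept its call only without bacterium-alone library 3 (otherwise limma adjusted p up to 0.0872), with log2 fold changes from 0.26 to 0.38.

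Both Tap genes are neighbours of Psmb8 and Psmb9. Within 25 kb of either gene, 3 other genes were listed, and all 3 were tested and higher, against 7.16% of all genes tested. They were Tap1, Tap2 and H2-DMb1, a chaperone of MHC class II loading (log2 fold change 0.64, limma adjusted p = 0.0128). Around Psmb10, 0 of 4 tested genes were called higher or lower. Around Psme1 and Psme2, 1 of 5 was, Irf9. The windows were chosen after the values were seen, and neighbours that share reads at their ends are not independent: 10.8% of the 75-base stretches of Psmb9 also occur in Tap1.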

How the data were processed

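RNA of whole ear skin was sequenced in 9 libraries, grouped by their titles (bacterium alone, n = 5; with anti-CTLA-4, n = 4). The authors deposited 1 table of TPM per gene and library on mm10. The submitters' processing notes name STAR, HOMER and DESeq2, and their versions and roles and the annotation were not given in the sources used here. Per the file headers the table holds a length per gene, which equals the gene's genomic span in 99.2% of genes. The deposited TPM times that length was a whole multiple of 1 number per library (100% of 17285 to 17816 values tested per library within 0.2 reads, against 37.3% to 38.1% with a wrong number), which gave 10213773 to 13868671 reads per library.

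Genes that reached 1 TPM in 4 or more libraries were tested by limma 3.58.1 (R 4.3.3) on the log2(TPM + 1) scale (linear model, empirical Bayes with a trend, no covariate, two-sided, Benjamini-Hochberg over all 15704 genes, threshold 0.05). The pseudocount of 1 understates changes of low genes. Ratios of subunit pairs were compared by exact permutation in scipy 1.17.1. The scripts were tested on simulated data. Levels per transcript used GENCODE M21 principal transcripts; RefSeq held promoters for 42 of the 50 members.

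Named are the immunoproteasome genes, the constitutive cutting subunits, Psme3, Psme4, Psmf1, every other called member, the members with the highest and lowest log2 fold change of each subunit list, and up to 4 called genes per pathway list. Members, lists and tests were chosen with earlier results of these data known. Alternatives were other pseudocounts, filters, scalings and variance settings, the replicate number as a block, a skeletal muscle covariate, a threshold of 0.1 and leaving out each library. Added after seeing the data were limma-voom on the recovered reads, protein-coding genes only, levels per transcript length and per merged exon length, the motifs and the neighbour windows. Some genes and motifs examined are not reported here.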

Additional observations from a re-analysis of the deposited data

Results flagged for a closer look

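In 78 groups of 4 or 5 libraries of the named genes, 7 had 1 library far from the others by the gap between the extreme value and its neighbour relative to the range, where chance gives about 5%. The first antibody library was low for Psmb8 (113 TPM; the others 151 to 154), Psme1 (123 TPM; 164 to 165) and Psme2b (188 TPM; 232 to 239). The third antibody library was high for Psmb7 (13.9 TPM; 12.1 to 12.2). The first bacterium-alone library was low for Psmb3 (16.1 TPM; 18.2 to 18.5) and Ifnar2 (6.22 TPM; 7.54 to 7.83). The fifth bacterium-alone library was high for Irf2 (12.4 TPM; 11.2 to 11.5).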

How the results depend on the processing

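For the 3 ratios, 4 alternatives were run besides leaving out libraries (no pseudocount, percent shares by TPM or per transcript length, and limma). None changed a direction or a call. A percent share keeps the library order of its ratio without a pseudocount, where the groups did not overlap either. The permutation p of these alternatives was thus fixed at its smallest value and adds no support. The scalings, the block and the muscle covariate were not run on the ratios. No called gene changed direction under any alternative run. Members called higher (5) numbered 3 without an expression filter (Psmb8, Psmb10 and Psme2b, with 2 immunoproteasome genes), 4 with array weights (without Psme1) and 8 by limma-voom on recovered reads, which also gave 3 constitutive subunits, 22 pathway genes and 2972 genes in all. Constitutive subunits called higher (0) numbered 2 with quantile normalization, 1 with a common median, 2 with totals that leave out the 50 most abundant genes, 2 at a threshold of 0.1 and 1 among protein-coding genes. Over all genes, 1828 were called (1124 higher, 704 lower), against 2743 with quantile normalization (1314 and 1429), 2615 with a common median (1302 and 1313), 2511 with totals without the most abundant genes (1205 and 1306) and 2854 at a threshold of 0.1, where 19 pathway genes were called. With the skeletal muscle covariate, 0 members, 0 immunoproteasome genes, 0 pathway genes and 11 genes in all were called. With each library left out in turn, members called ran from 1 to 8, immunoproteasome genes from 1 to 4, constitutive subunits from 0 to 3, pathway genes from 6 to 14 and all genes from 1190 to 1763. The cause of these moves was not tested. Libraries with the same replicate number did not deviate together (correlations of -0.093 to 0.018 over 4 pairs, other pairs -0.062 to 0.099). With the number as a replicate block, 3 members (Psmb8, Psmb10 and Psme1), 6 pathway genes and 681 genes in all were called. Psmb9 (limma adjusted p = 0.0621) and Psme2b (0.0512) were thus lost. Replicate number 5 occurs only with the bacterium alone, so this fit in effect leaves that library out of the comparison. The median log2 fold change of the immunoproteasome genes was 1.04 in both fits, with the block and without that library. Of the 12 pathway genes, 4 stayed called with the block (B2m, Ifnar2, Irf8 and Irf9), 8 were lost, and 2 were gained (Socs3 and Tapbp). Among tested members the fewest reads were 33 in a library, for Psmc3ip.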
